A study of Homo sapiens with 24 samples.

Results

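The 8 genes described here are the basal, stress and hair keratins KRT5, KRT6A, KRT6B, KRT14, KRT15, KRT16, KRT17 and KRT34, chosen by symbol from the 37247 gene ids of the deposited tables. RNA was sequenced in 24 libraries of the human line MDA-MB-231, a breast cancer line of mesenchymal character, with 3 libraries in each of 8 groups. The groups were the lines that the titles call dSAP, dSRF, WT and control, each grown on matrigel, which is a gel of basement membrane proteins (3D), and in plates (2D). The WT line overexpressed wild-type MRTF-A and the dSAP and dSRF lines carried mutants of it, whose names the labels do not spell out. All lines, control included, are labelled as given doxycycline at 1 ug/ml for 72 h. The labels do not say whether a line is 1 clone, what the control line carries, or whether replicates were separate cultures, so p-values here measure the spread between these libraries, which may be technical.

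Keratins are the intermediate filament proteins of epithelia, and a filament is built from pairs of a type I and a type II keratin. KRT5 (type II) with KRT14 (type I) is the pair of basal epidermal and basal mammary cells, and KRT15 is a further type I keratin of basal cells and of the hair follicle bulge. KRT6A and KRT6B (type II) with KRT16 and KRT17 (type I) are induced in keratinocytes by wounding and stress, and KRT17 is also a marker of basal-like breast cancer. KRT34 is a type I keratin of hair. MRTF-A binds actin monomers and, once released, activates genes together with the transcription factor SRF.

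Several members have near-identical copies, so reads can be shared between them. In GENCODE 29 transcripts, 31-base words that also occur in another gene made up 44.0% of the words of KRT6A, 58.3% of KRT6B, 33.0% of KRT14, 31.8% of KRT16, 22.5% of KRT17 and 21.8% of KRT34, against 4.04% of KRT5 and 3.61% of KRT15. KRT6C held 38.7% of the words of KRT6A, the pseudogene KRT16P3 held 16.8% of those of KRT16 and the pseudogene KRT17P1 held 15% of those of KRT17. The coding sequences of KRT6A and KRT6B were identical at 97.5% of aligned columns, those of KRT14 and KRT16 at 85.4%, of KRT14 and KRT17 at 78% and of KRT16 and KRT17 at 72.4%. The stretches below, coding sequence from the minus strand of chromosome 17 in GRCh38 (GENCODE 29), show where reads of KRT14, KRT16 and KRT17 can and cannot be told apart, with the columns that differ among the 3 genes in capitals. In the 60-base window of exon 1 with the fewest differences, 1 column differed and KRT14 and KRT16 were the same.
KRT14 exon 1, chr17:41586424-41586483: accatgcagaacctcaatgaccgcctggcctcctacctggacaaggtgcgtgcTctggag
KRT16 exon 1, chr17:41612272-41612331: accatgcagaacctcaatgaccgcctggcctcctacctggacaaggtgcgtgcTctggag
KRT17 exon 1, chr17:41624192-41624251: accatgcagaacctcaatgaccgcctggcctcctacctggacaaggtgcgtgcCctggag
The other 60-base window, in exon 2, is the one in which the closest pair of the 3 genes differed most. There 19 columns differed, and pairs of genes differed at 7 to 18 of them.
KRT14 exon 2, chr17:41584992-41585051: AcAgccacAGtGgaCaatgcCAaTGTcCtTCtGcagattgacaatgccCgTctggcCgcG
KRT16 exon 2, chr17:41611656-41611715: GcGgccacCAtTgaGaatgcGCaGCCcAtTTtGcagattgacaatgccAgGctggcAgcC
KRT17 exon 2, chr17:41622967-41623026: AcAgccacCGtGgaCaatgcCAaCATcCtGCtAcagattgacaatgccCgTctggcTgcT
No copy took up counts on the scale of the abundant members. KRT6C held 2 counts over all 24 libraries, KRT14 itself held 31, and each of the 16 listed pseudogenes that are in the tables held at most 23.

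Total counts ran from 13968829 to 23023415 per library. By title, MRTFA stood at 8590 to 10739 TPM in dSAP, 4117 to 4374 TPM in WT and 3646 to 3929 TPM in 2D dSRF. Control libraries held 34.3 to 47.8 TPM. The part of these unlike levels in the differences between lines was not tested. MRTFA was thus high in every library titled dSAP, dSRF or WT. But the library labelled 3D dSRF 1 held 759 TPM of it, against 5946 and 6209 TPM in the other 3D dSRF libraries. That library stood apart: its log2 CPM correlated across genes with its own group at a mean r of 0.948, and at r = 0.971 with the average 2D dSRF library. The library labelled 3D dSRF 1 enters the fit of all 8 groups. Most results given here whose call changes without it are also given without it. By group, VIM, a mesenchymal marker, averaged 1605 to 2264 TPM. Of the epithelial markers, CDH1 averaged 0.123 to 0.925 TPM and EPCAM 29.6 to 205 TPM, and ESR1, the estrogen receptor gene, 0 to 0.0928 TPM.

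KRT17 (ENSG00000128422, chromosome 17, 41619441 to 41624842, minus strand) rose in every line that overexpressed MRTF-A. With all libraries fitted, it was the only member to pass edgeR's test against control in each of these lines in both cultures. Without the library that stood apart, KRT15 and KRT16 also passed in each, with smaller fold changes than KRT17 in dSAP and WT. In 3D KRT17 stood at 14, 14.3 and 11.5 TPM in dSAP, at 59.6, 145 and 159 TPM in dSRF and at 111, 115 and 112 TPM in WT, against 0.294, 0.0724 and 0.0636 TPM in control. In 2D it stood at 47.6, 51.5 and 52.8 TPM in dSAP, at 52.8, 57.9 and 61.5 TPM in dSRF and at 271, 259 and 266 TPM in WT, against 0.138, 0.228 and 0 TPM in control. No library of these lines overlapped with the control libraries, which held between 0 and 4 counts each. TPM, the share of transcripts that a gene makes up in a library, corrects for transcript length and is used here for all levels compared between genes.

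The fitted log2 fold changes of KRT17 over 3D control were 6.45 ± 0.52 (SE) in dSAP, 9.66 ± 0.42 in dSRF and 9.67 ± 0.42 in WT. Over 2D control they were 9.10 ± 0.47 in dSAP, 9.21 ± 0.47 in dSRF and 11.60 ± 0.43 in WT. All were called, with adjusted p from 9.85e-14 to 1.75e-08 in edgeR's quasi-likelihood test, Benjamini-Hochberg adjusted over the 14986 genes tested, where a call is an adjusted p under 0.05. The control groups held 6 counts in 3D and 4 in 2D, so the size of these fold changes rests on few control counts. Without 3D dSRF 1 the value in 3D dSRF was 9.96 ± 0.17. In bulk RNA, more cells with KRT17 and more KRT17 per cell cannot be told apart.

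**Figure D1:**
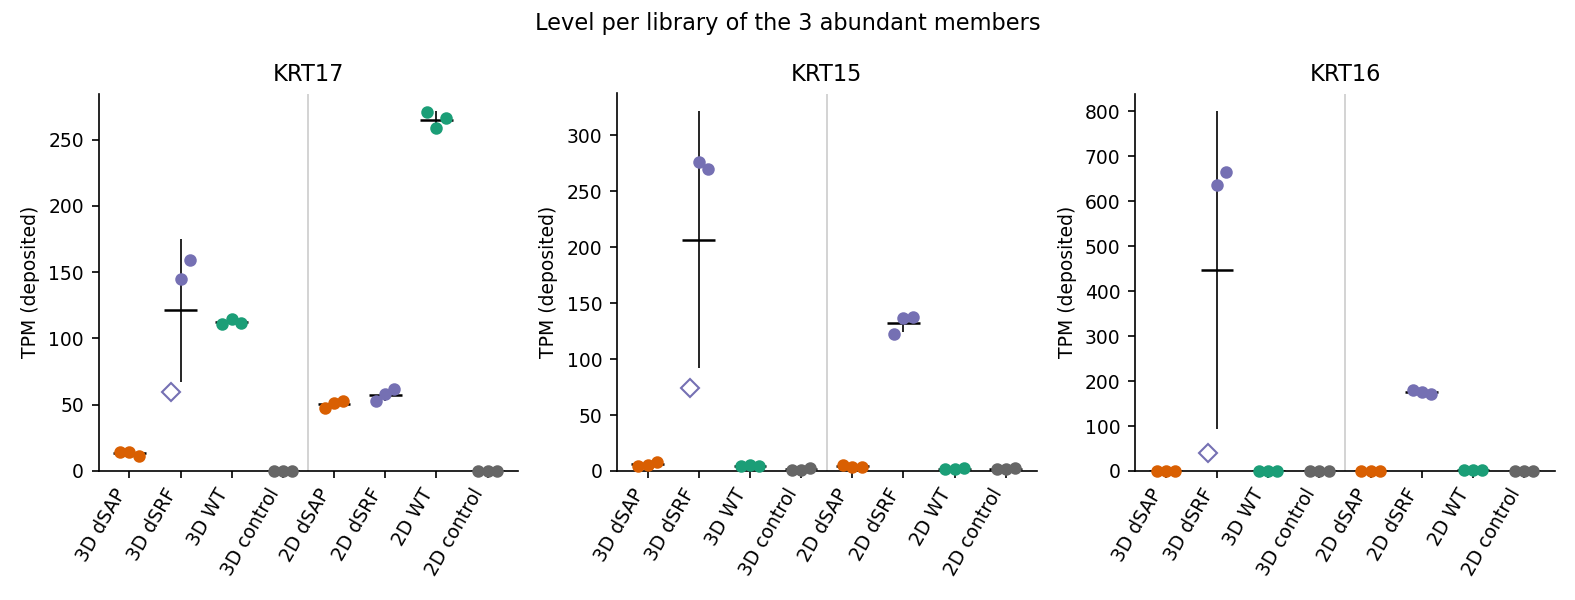
Deposited TPM of KRT17, KRT15 and KRT16 (y axes, linear, each panel on its own scale) in each library of the 8 groups, with the group mean (bar) and SD (line); the open diamond is the library labelled 3D dSRF 1. KRT17 is above 11 TPM in all dSAP, dSRF and WT libraries, while KRT15 and KRT16 exceed 40 TPM in dSRF libraries and stay under 9 TPM in the others.

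KRT17 was lower in dSAP than in WT in both cultures. The difference was -3.22 ± 0.23 in 3D (adjusted p = 1.33e-08) and -2.50 ± 0.21 in 2D (adjusted p = 2.62e-07), with no overlap of libraries. In 2D the dSRF line was also below WT, by -2.38 ± 0.21 (adjusted p = 9.69e-09), and dSAP and dSRF differed by -0.11 ± 0.21 (adjusted p = 0.652). In 3D the dSRF libraries lay on both sides of the WT libraries: the difference was -0.02 ± 0.20 (adjusted p = 0.951), and 0.28 ± 0.07 (adjusted p = 7.41e-04) without the library labelled 3D dSRF 1. The 3D dSAP line was below 3D dSRF by -3.21 ± 0.23 (adjusted p = 4.43e-10), or -3.51 ± 0.08 without that library. By mean TPM the order of the groups was 2D WT, 3D dSRF, 3D WT, 2D dSRF, 2D dSAP, 3D dSAP and the controls, and the neighbours 3D dSRF and 3D WT, and 2D dSRF and 2D dSAP, did not differ beyond their spread.

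The culture moved KRT17 in opposite directions in different lines. It fell in 3D relative to 2D by 2.10 ± 0.23 in dSAP (adjusted p = 4.68e-07) and by 1.37 ± 0.20 in WT (adjusted p = 1.47e-05) on the log2 scale, with no overlap of libraries. In dSRF it rose by 0.99 ± 0.20 (adjusted p = 0.00240), with the library labelled 3D dSRF 1 inside the range of 2D dSRF. Without that library the rise was 1.29 ± 0.07 (adjusted p = 4.59e-13); the call was lost when only the dSRF groups were fitted (adjusted p = 0.280) and on log2(TPM + 0.1) (adjusted p = 0.134). In control the 3D and 2D groups held 6 and 4 counts (0.55 ± 1.51, adjusted p = 0.796). A comparison added after these values were seen, the 3D over 2D change of one line minus that of another, gave 2.37 ± 0.29 for dSRF minus WT (adjusted p = 4.32e-06), -3.10 ± 0.31 for dSAP minus dSRF (adjusted p = 5.46e-07) and -0.73 ± 0.30 for dSAP minus WT (adjusted p = 0.278; 8.33e-05 without 3D dSRF 1). The effect of each line over control did not pass the test of a difference between cultures for KRT17, with standard errors of 1.60 to 1.84 beside the 6 and 4 control counts. On log2(TPM + 1), with all libraries, it passed in dSAP (-1.89 ± 0.32, adjusted p = 0.00452) and in WT (-1.26 ± 0.32, adjusted p = 0.0294).

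**Figure D2:**
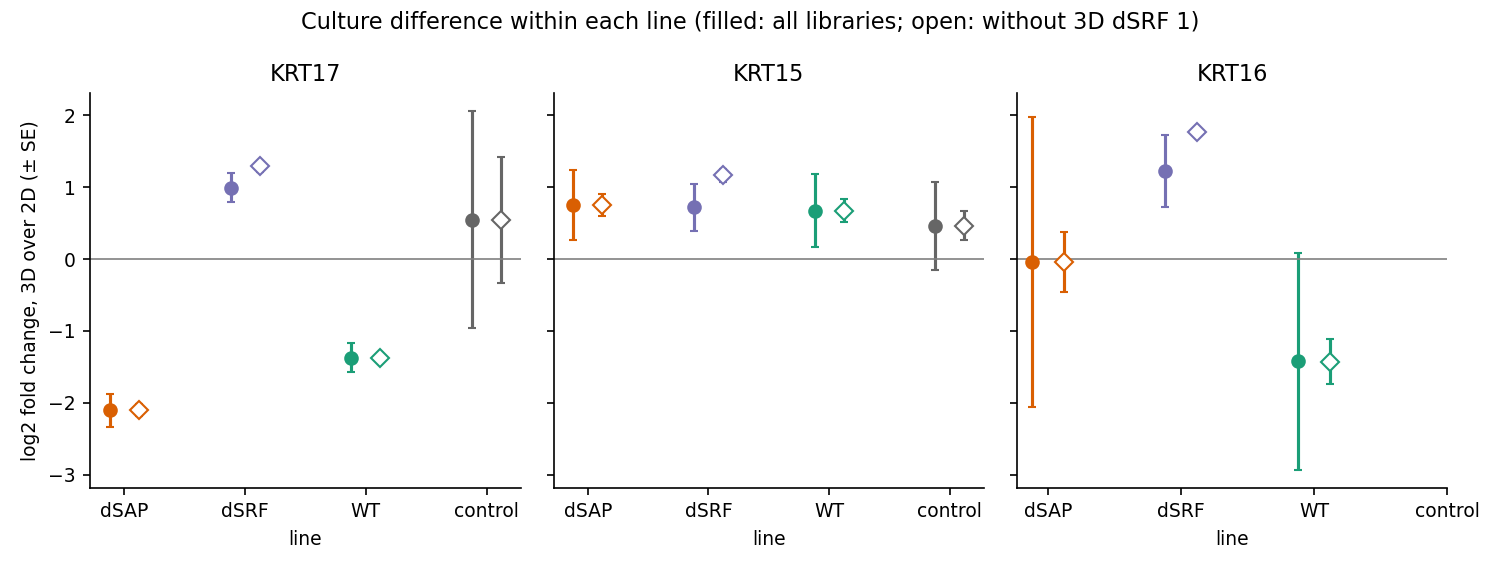
Fitted log2 fold change of 3D over 2D (y axis, ± SE) within each line (x axis) for KRT17, KRT15 and KRT16, from all 24 libraries (filled) and without the library labelled 3D dSRF 1 (open); KRT16 in control, with 2 counts in 3D and 5 in 2D, is not drawn. KRT17 lies below 0 in dSAP and WT and above 0 in dSRF.

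KRT15 (ENSG00000171346, chromosome 17, 41513743 to 41522529) and KRT16 (ENSG00000186832, chromosome 17, 41609778 to 41615899) were high in the dSRF line in both cultures. KRT15 stood at 74.3, 276 and 270 TPM in 3D dSRF and at 123, 137 and 138 TPM in 2D dSRF, while the other 18 libraries held at most 8.26 TPM. Its dSRF libraries did not overlap with those of any other line. Over control it was higher by 6.21 ± 0.46 in 3D (adjusted p = 6.32e-10) and by 5.95 ± 0.47 in 2D (adjusted p = 2.23e-09). Over WT it was higher by 5.20 ± 0.42 in 3D (adjusted p = 2.24e-09) and by 5.15 ± 0.44 in 2D (adjusted p = 8.00e-09). Without 3D dSRF 1 the values in 3D were 6.64 ± 0.12 over control and 5.64 ± 0.11 over WT.

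KRT16 stood at 40.2, 637 and 665 TPM in 3D dSRF, with the lowest value in the library labelled 3D dSRF 1, and at 180, 175 and 172 TPM in 2D dSRF. The other 18 libraries held 0 to 1.93 TPM, so that within 3D dSRF the libraries differed more from each other than the 2D dSRF libraries did. In 3D the dSRF libraries held 19840 counts against 2 in control, a ratio of 8646 in normalised counts with an exact 95% interval of 2393 to 71399 that covers counting error only (adjusted p = 1.32e-08). In 2D the log2 fold change of dSRF over control, which held 5 counts, was 10.51 ± 1.08 (adjusted p = 9.65e-08). Over WT, KRT16 was higher in dSRF by 9.57 ± 0.88 in 3D (adjusted p = 1.83e-08) and by 6.92 ± 0.79 in 2D (adjusted p = 4.02e-07). Without 3D dSRF 1 the value over WT in 3D was 10.11 ± 0.12.

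Between cultures, KRT15 and KRT16 in dSRF overlapped in range because of the library labelled 3D dSRF 1. The 3D over 2D change was 0.72 ± 0.33 for KRT15 (adjusted p = 0.140) and 1.23 ± 0.51 for KRT16 (adjusted p = 0.105). Without that library it was 1.16 ± 0.09 for KRT15 (adjusted p = 5.09e-11) and 1.76 ± 0.06 for KRT16 (adjusted p = 7.38e-17). Both were then called higher in 3D. Other culture changes were also called only without it or in some other settings. KRT15 was higher in 3D by 0.76 ± 0.15 in dSAP (adjusted p = 1.15e-04) and by 0.67 ± 0.16 in WT (adjusted p = 7.47e-04), and KRT16 was lower in 3D WT by -1.43 ± 0.31 (adjusted p = 2.74e-04), against adjusted p = 0.214, 0.289 and 0.459 with all libraries. For the 3D over 2D change in dSRF minus that in WT, KRT16 gave 3.19 ± 0.32 (adjusted p = 5.63e-09) and KRT15 0.49 ± 0.19 (adjusted p = 0.0323) without it, against 2.65 ± 1.59 (adjusted p = 0.218) and 0.05 ± 0.63 (adjusted p = 0.970) with it. In dSAP minus dSRF, KRT16 gave -1.80 ± 0.45 (adjusted p = 0.00193) without it, against -1.27 ± 2.15 (adjusted p = 0.715). For the dSRF effect in 3D minus that in 2D, KRT15 gave 0.70 ± 0.22 (adjusted p = 0.0125) without it, against 0.26 ± 0.71 (adjusted p = 0.832).

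Outside dSRF both genes stayed low. KRT15 averaged 6.20 ± 1.82 TPM (SD) in 3D dSAP and 4.80 ± 0.807 in 3D WT, against 1.63 ± 0.841 in 3D control. In 2D it averaged 4.01 ± 1.08 TPM in dSAP and 2.03 ± 0.603 in WT, against 1.92 ± 0.602 in control. These differences from control, 0.80 to 1.2 on the log2 scale of the counts, did not pass edgeR's test with all libraries (adjusted p = 0.0840 to 0.325). With all libraries DESeq2 called the 3D differences, dSAP at adjusted p = 0.0123 and WT at 0.0368, as did limma on the TPM scales (adjusted p = 0.00219 to 0.0326). In edgeR all 4 passed without 3D dSRF 1, with adjusted p from 6.62e-07 to 0.00163. KRT16 held 8, 6 and 5 counts in 2D dSAP and 24, 15 and 16 in 2D WT, against 2, 3 and 0 in 2D control. Its log2 fold changes were 1.94 ± 2.78 in dSAP (adjusted p = 0.643) and 3.59 ± 2.16 in WT (adjusted p = 0.207), and without 3D dSRF 1 both were called, dSAP at adjusted p = 0.00781 and WT at 1.85e-07. With all libraries WT was also called by DESeq2 (adjusted p = 7.21e-04) and on log2(TPM + 0.1) (adjusted p = 0.00345). In 3D KRT16 held 4, 12 and 5 counts in dSAP and 9, 10 and 7 in WT, against 1, 1 and 0 in control. The ratios of normalised counts were 9.79 in dSAP, with an exact 95% interval of 2.39 to 86.1, and 11.8 in WT, with 2.95 to 102 (adjusted p = 0.537 and 0.459). DESeq2 called both, at adjusted p = 0.0366 and 0.0173, and so did edgeR without 3D dSRF 1, at 7.27e-04 and 1.51e-04. In 2D KRT16 was lower in dSAP than in WT by -1.65 ± 1.63 (adjusted p = 0.595), or ± 0.33 (adjusted p = 4.83e-04) without that library.

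The basal type II keratin KRT5 (ENSG00000186081, chromosome 12, 52514575 to 52520687) was detected at low counts in dSRF. It held 13, 17 and 20 counts in 3D dSRF and 10, 7 and 16 in 2D dSRF. Outside dSRF it held 1 count in 1 library of 2D dSAP and 0 in the other 17 libraries. It was at least 14.5-fold higher in 3D dSRF than in 3D control (adjusted p = 1.51e-04) and at least 12.5-fold higher in 2D dSRF than in 2D control (adjusted p = 2.49e-04), both being lower bounds for which the control group was set to 3 counts. In TPM it averaged 0.658 ± 0.230 in 3D dSRF and 0.754 ± 0.347 in 2D dSRF, levels that did not differ beyond their spread (log2 fold change on the counts 0.27 ± 0.51, adjusted p = 0.777).

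Its usual partner KRT14 (ENSG00000186847, chromosome 17, 41582279 to 41586921) held 9 counts at most in a library and was not tested. In 3D it held 0, 2 and 0 counts in dSAP, 9, 2 and 5 in dSRF and 1, 0 and 1 in WT. In 2D it held 0, 0 and 2 counts in dSAP, 1, 0 and 1 in dSRF and 1, 2 and 4 in WT. All control libraries held 0. At up to 0.415 TPM its level stood below that of KRT16, KRT15 and KRT17 in the same dSRF libraries by more than the spread between them. Of its 31-base words 12.9% also occur in KRT16, which was high in dSRF, and the part of shared reads in the KRT14 counts was not tested.

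KRT6A (ENSG00000205420, chromosome 12, 52487174 to 52493257) held 80, 37 and 32 counts in 3D dSRF and 5, 6 and 3 in 2D dSRF. In other lines it held 1 count, in 1 library of 2D control. It was at least 43.3-fold higher in 3D dSRF than in 3D control (adjusted p = 3.97e-05). In 2D dSRF its normalised counts were 15.9 times those of 2D control, with an exact 95% interval of 2.42 to 672 (adjusted p = 0.00977); the call was lost on log2(TPM + 1) (adjusted p = 0.0698, and 0.0932 with no filter). Within dSRF it was higher in 3D than in 2D by 2.93 ± 0.59 (adjusted p = 0.00868), or 2.54 ± 0.61 without 3D dSRF 1, in which it was highest. That call was lost when only the dSRF groups were fitted (adjusted p = 0.112). KRT6B (ENSG00000185479, chromosome 12, 52446651 to 52452126) held 0 counts in all 24 libraries, which allows 0.0482 to 0.0643 CPM over a group at a floor of 3 counts. With 97.5% identical coding sequence the split of reads between KRT6A and KRT6B is uncertain; KRT6A, KRT6B and KRT6C summed gave 3.59 ± 0.99 in 2D dSRF over control (adjusted p = 0.00953).

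The hair keratin KRT34 (ENSG00000131737, chromosome 17, 41377650 to 41382403) had its highest level in another line, 2D dSAP. It held 42, 31 and 31 counts in 2D dSAP, 17, 6 and 12 in 2D dSRF and 6, 4 and 0 in 2D WT, against 0 in 2D control. In 3D it held 0 in all dSAP libraries, 23, 0 and 0 in dSRF, with the 23 counts in the library labelled 3D dSRF 1, and 3, 0 and 0 in WT, against 0 in control. It was thus mostly detected in 2D, and the only 3D library with more than 3 counts was the one that stood apart.

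In 2D, KRT34 was at least 36.9-fold higher in dSAP (adjusted p = 0.00471) and at least 13.3-fold higher in dSRF (adjusted p = 0.0114) than in control. In 3D dSAP it was at least 39.4-fold lower than in 2D dSAP (adjusted p = 0.00276). The differences among the 2D lines did not pass edgeR's test with all libraries: dSAP over WT was 3.20 ± 1.16 (adjusted p = 0.0942), dSAP over dSRF 1.45 ± 1.01 (adjusted p = 0.226) and dSRF over WT 1.75 ± 1.21 (adjusted p = 0.223). On log2(TPM + 1), with all libraries, they were called at adjusted p = 3.41e-04, 0.00348 and 0.0234, and in edgeR without 3D dSRF 1 at 0.00232, 0.0405 and 0.0455. Without that library 2D WT over control was called as well, at adjusted p = 0.0125. With all libraries it was not (adjusted p = 0.126), and the fold was 3.89 with control set to 3 counts. Also called without that library was KRT34 in 3D dSRF, then at 0 counts, below 2D dSRF (adjusted p = 0.00133, against 0.551 with all libraries). The calls of KRT34 in 3D dSRF over control (adjusted p = 0.0386) and in 3D dSAP below dSRF (adjusted p = 0.0359) rest on that library alone: without it both groups were at 0.

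**Figure D3:**
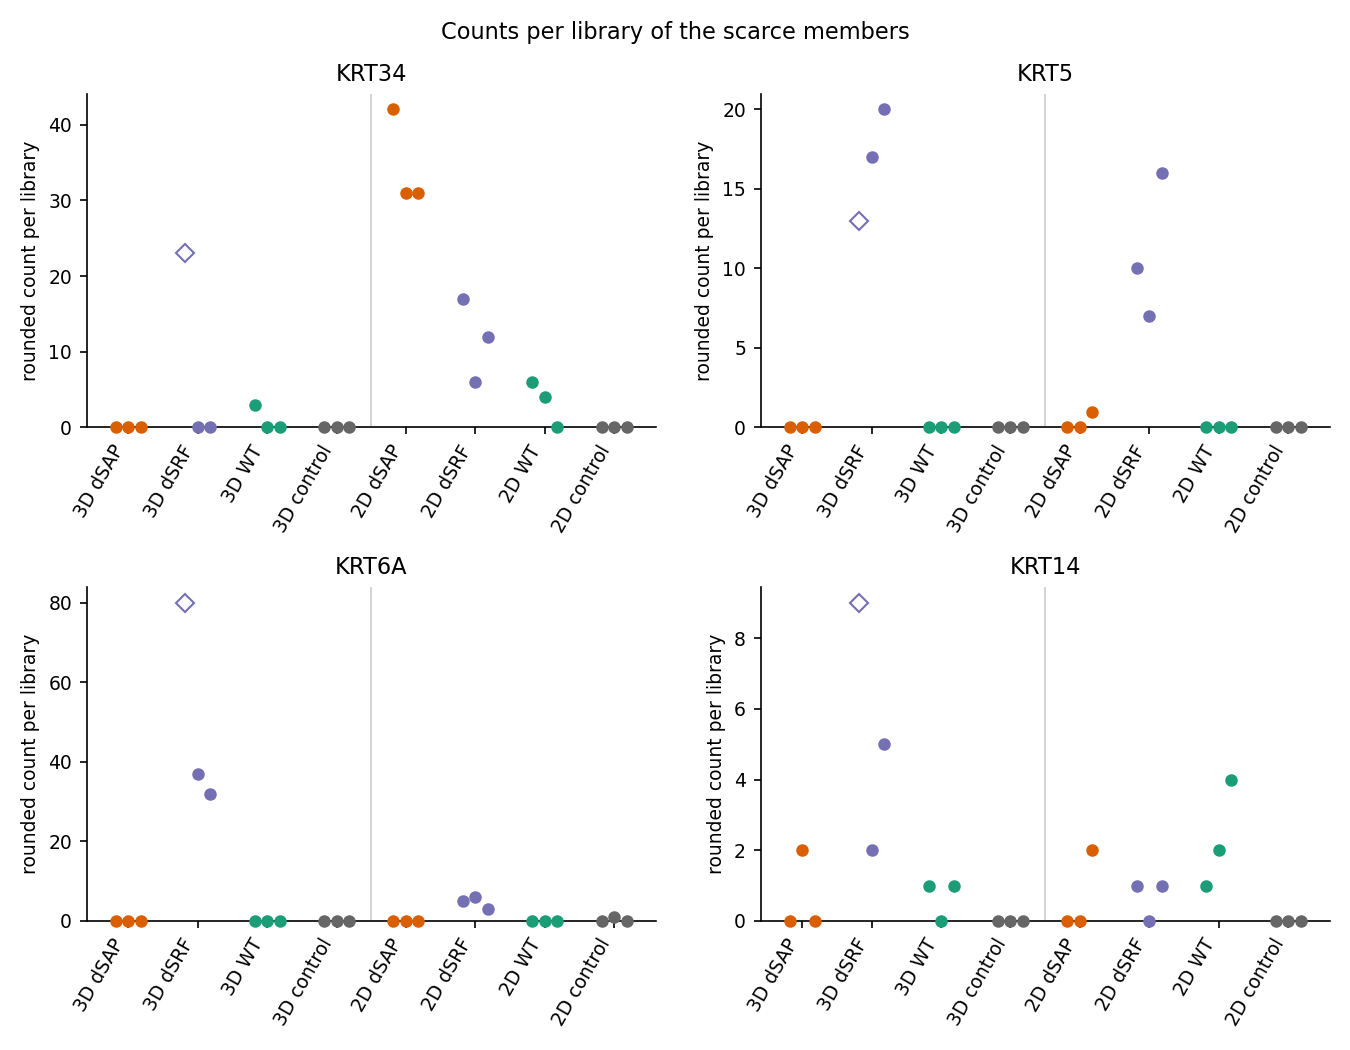
Rounded counts (y axes) of KRT34, KRT5, KRT6A and KRT14 in each library of the 8 groups; the open diamond is the library labelled 3D dSRF 1. KRT5 and KRT6A hold counts in all 6 dSRF libraries, and KRT34 holds 31 to 42 counts in 2D dSAP and 0 in 3D dSAP.

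Of the 8 members, 6 had enough counts to be tested. KRT5, KRT6A, KRT16, KRT17 and KRT34 passed that filter only through groups in which they stood above control. Their calls are thus no measure of how the keratins as a set behaved. Of the 6, 1 was called higher than control in 3D dSAP, 6 in 3D dSRF and 1 in 3D WT, beside 16.5%, 35.1% and 18.0% of all genes tested. In 2D, 2 were called higher in dSAP, 6 in dSRF and 1 in WT, beside 17.5%, 34.5% and 20.1%. Against WT, 1 was called lower in dSAP in each culture, KRT17, beside 6.63% of all genes in 3D and 7.71% in 2D. In dSRF against WT, 4 were called higher in 3D, beside 34.2%, and 4 higher and 1 lower in 2D, beside 64.0% called in either direction. In dSAP against dSRF, 6 were called lower in 3D and 4 in 2D, beside 32.9% and 33.6%. For 3D over 2D, 2 were called lower in dSAP, 2 higher in dSRF and 1 lower in WT, beside 23.5%, 7.19% and 25.7%, and 0 in control, beside 47.4% in either direction. The 0 in control had 0 members at an unadjusted p under 0.05, and DESeq2 also called 0. None was called for the difference of a line's effect between cultures, beside 2.34% (dSAP), 29.2% (dSRF) and 9.18% (WT) of all genes. For the added differences between lines in the 3D over 2D change, 0 were called for dSAP minus WT, beside 1.38% in either direction. For dSRF minus WT 1 was called higher, KRT17, beside 16.4%. For dSAP minus dSRF 2 were called lower, KRT17 and KRT34, beside 13.2%; the KRT34 call (adjusted p = 0.0426) has 0 counts in 3D dSAP and was lost in 14 of 24 fits that left out a library, by DESeq2 (adjusted p = 0.0760), without a filter on low counts (0.0756), on log2(TPM + 0.1) (0.103) and with only the groups compared (0.0824).

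The place of these genes among all keratins differed by line. The 26 type I keratins summed to 690 ± 29.5 TPM in dSAP, 6930 ± 2932 in dSRF and 870 ± 9.33 in WT in 3D, against 592 ± 15.4 in control (SD). In 2D they summed to 963 ± 47.1 TPM in dSAP, 5466 ± 246 in dSRF and 1321 ± 12.6 in WT, against 812 ± 47.7 in control. KRT14, KRT15, KRT16, KRT17 and KRT34 together made up 20.4% ± 0.268 of the type I sum in 2D WT and 13.5% ± 0.183 in 3D WT, nearly all of it KRT17. They made up 9.97% ± 4.35 in 3D dSRF and 6.71% ± 0.427 in 2D dSRF, shared among KRT15, KRT16 and KRT17. In 3D dSRF the share ran from 4.95%, in the library labelled 3D dSRF 1, to 12.7%. In dSAP they made up 2.89% ± 0.146 in 3D and 5.94% ± 0.232 in 2D, and in control 0.317% ± 0.132 in 3D and 0.266% ± 0.0659 in 2D.

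The type II side did not hold a like share. KRT5, KRT6A and KRT6B together were 0.05% ± 0.026 of the type II sum in 3D dSRF and 0.0221% ± 0.00589 in 2D dSRF, and 0 in 3D dSAP, 3D WT and 2D WT. The type II sum was 5743 ± 1563 TPM in 3D dSRF and 1501 ± 43.9 TPM in 2D WT. Of it, KRT8, a type II keratin of simple epithelia, held 4984 ± 1510 TPM in 3D dSRF and 652 ± 13.0 TPM in 2D WT, and KRT7, another, 651 ± 44.4 TPM in 3D dSRF and 690 ± 27.1 TPM in 2D WT.

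**Figure D4:**
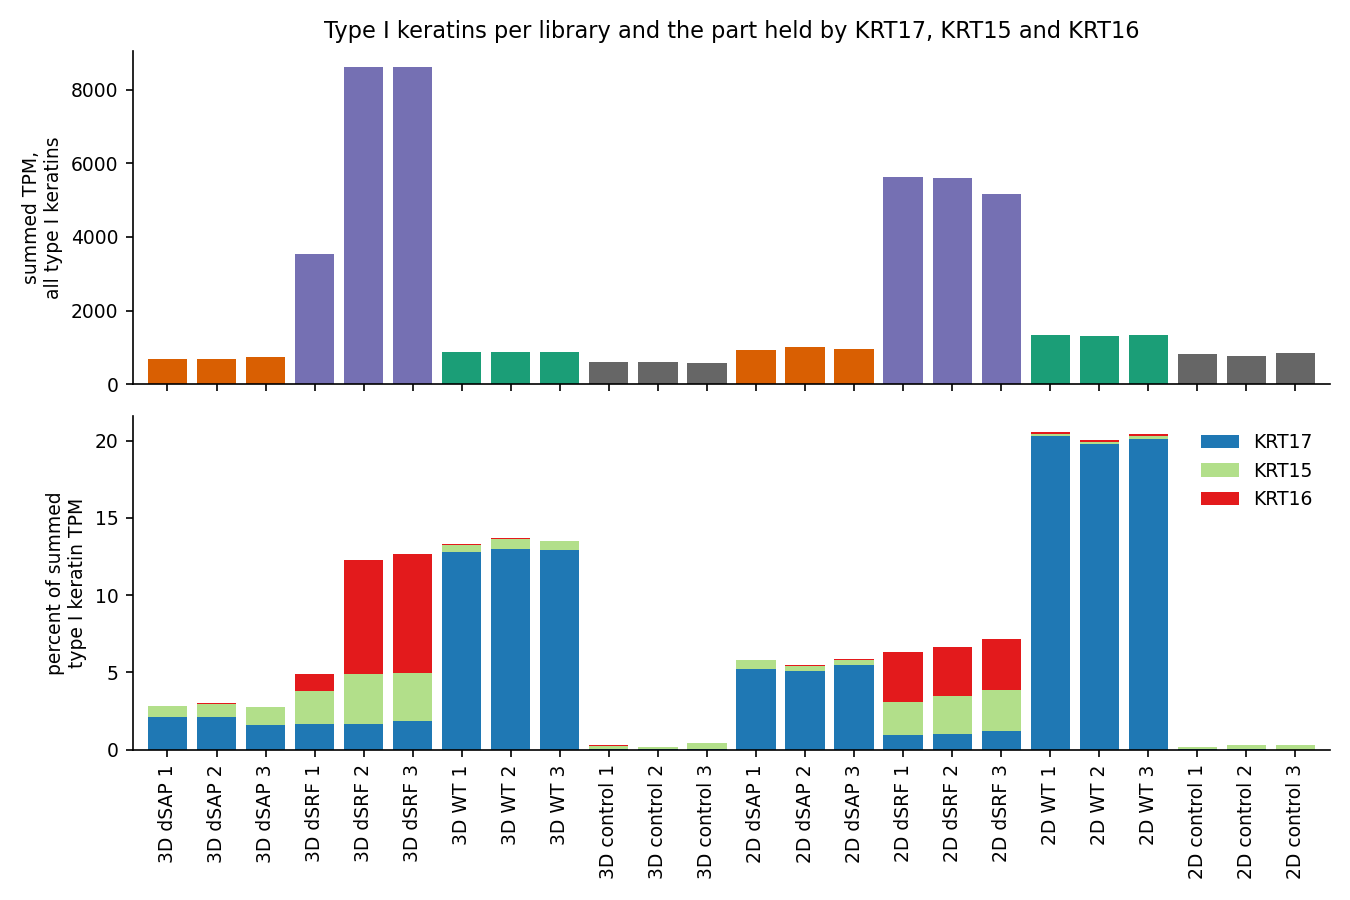
Upper panel, summed TPM of the 26 type I keratins in each library; lower panel, percent of that sum held by KRT17, KRT15 and KRT16 (stacked). The members hold 20.4% on average in the 2D WT libraries, nearly all KRT17, and KRT15 and KRT16 appear in the dSRF libraries.

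Keratins of simple epithelia moved with the members in part. Of the 4 tested of 6 (KRT7, KRT8, KRT18 and KRT19), 3 were called higher in dSAP, 4 in dSRF and 4 in WT than in control in 3D, with median log2 fold changes of 0.47, 3.76 and 0.88. In 2D, 1 was called higher in dSAP, 3 higher and 1 lower in dSRF, and 4 higher in WT, with medians of 0.23, 2.90 and 0.60. The median over all genes lay between -0.024 and 0.023 in these 6 comparisons. KRT8 rose by 4.19 in 3D dSRF and 3.30 in 2D dSRF, and its partner KRT18 by 4.52 and 3.21. KRT7 rose by 1.92 in 3D dSRF and fell by 0.50 in 2D dSRF.

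Of 14 hair keratins other than KRT34 with a row, 2 were tested, KRT81 and KRT86, both type II hair keratins. KRT81 rose in 3D by 1.86 in dSAP, 0.99 in dSRF and 2.26 in WT, and in 2D by 2.52 in dSAP and 2.99 in WT, while 2D dSRF stood at 0.47 (adjusted p = 0.107). KRT86 was called higher in 2D, by 1.07 in dSAP, 0.83 in dSRF and 0.91 in WT, and not in 3D. Of the 9 root-sheath keratins only KRT71 was tested: it held 115 counts in 3D dSRF, 74 in 2D dSRF and 0 in every other group. Of 14 suprabasal and tissue-specific keratins 3 were tested, KRT10, KRT79 and KRT80, and KRT10 was lower in 3D dSRF (-0.31) and 2D dSRF (-0.27). KRT80, an epithelial type II keratin, was called higher in each 3D line, by 0.56 in dSAP, 1.07 in dSRF and 0.92 in WT, and in 2D by 0.16 in dSAP and 0.21 in WT, but lower in 2D dSRF (-0.65).

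**Figure D5:**
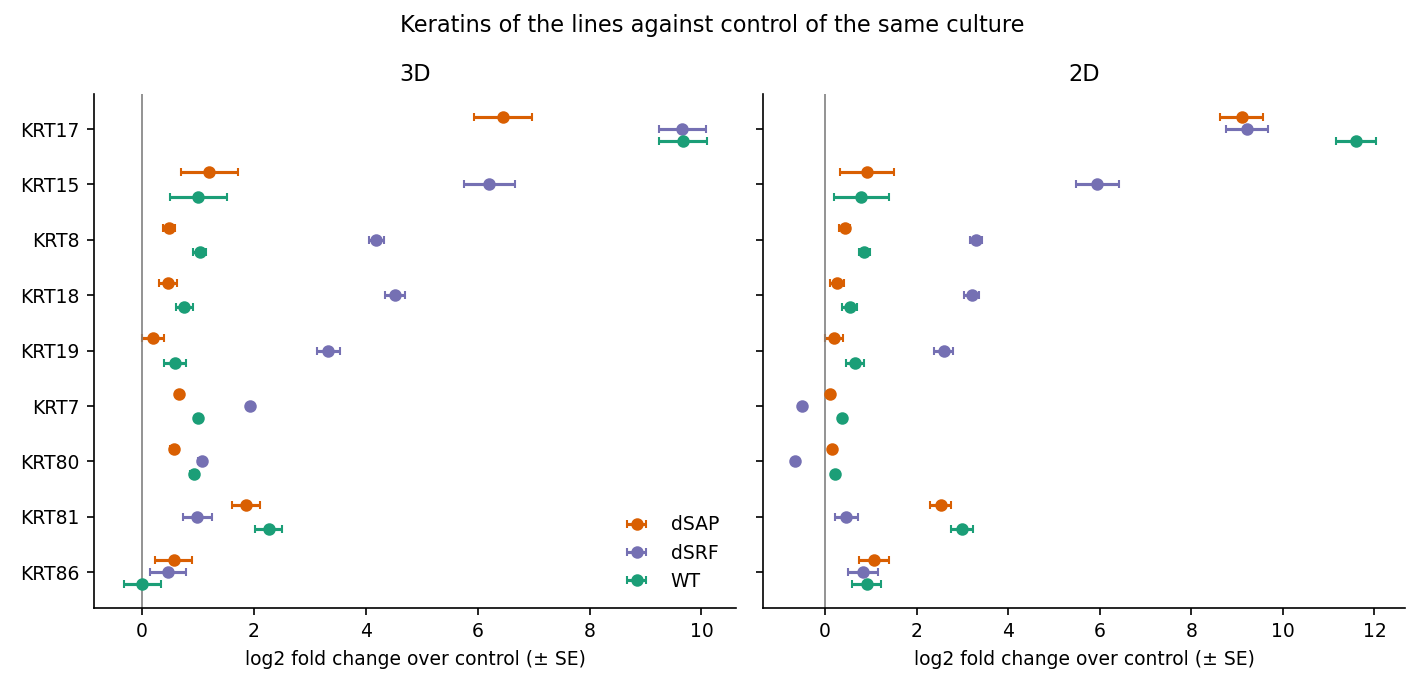
Log2 fold change over control of the same culture (x axis, ± SE) for KRT17, KRT15 and 7 other keratins in dSAP, dSRF and WT, in 3D (left) and 2D (right). KRT17 is the highest of these in dSAP, dSRF and WT in both cultures, and KRT15, KRT8, KRT18 and KRT19 are also high in dSRF.

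Genes that work with keratin filaments moved in both directions. Of all genes tested, those called higher than control are given above, and those called lower were 13.1% in dSAP, 31.3% in dSRF and 17.0% in WT in 3D, and 15.4%, 31.5% and 19.2% in 2D. Of 9 tested hemidesmosome genes, the anchor of basal keratin filaments to the basement membrane, 2 were higher and 3 lower in 3D dSAP, 4 and 1 in 3D dSRF and 3 and 3 in 3D WT. In 2D the counts were 3 higher and 4 lower in dSAP, 3 and 5 in dSRF and 4 and 2 in WT. COL17A1, its transmembrane collagen, rose by 1.87 in 3D dSAP, 2.28 in 3D WT, 3.39 in 2D dSAP and 3.94 in 2D WT. ITGB4, the beta 4 integrin, rose by 2.49 in 3D dSRF and 1.31 in 2D dSRF, but fell in 2D dSAP (-0.70). LAMA3, which had the lowest p of the list in dSRF, fell there (-2.10 in 3D and -1.08 in 2D). PLEC fell in 3D dSAP (-0.31), 3D WT (-0.46), 2D dSAP (-0.47) and 2D WT (-0.52), and rose in 3D dSRF (0.42). Of 9 tested partners and modifiers of keratin filaments, 3 were higher and 2 lower in 3D dSAP, 6 and 3 in 3D dSRF and 2 and 2 in 3D WT; in 2D it was 2 and 2, 4 and 3, and 2 and 3. EPPK1 (epiplakin), which binds keratin filaments, rose by 6.09 in dSAP, 2.26 in dSRF and 7.76 in WT in 3D, and by 5.26, 2.19 and 6.69 in 2D. DSP (desmoplakin), which ties keratins to desmosomes, rose in all 6 comparisons, by 2.75 in 3D dSRF. AHNAK2 fell in 3D dSAP (-1.28), 3D WT (-2.00), 2D dSAP (-0.94) and 2D WT (-0.93), and rose in dSRF (2.83 in 3D and 3.78 in 2D). PPL fell in 2D dSRF (-2.25) and rose in 3D dSAP (0.51). Of 7 tested other intermediate filament genes, none was higher and 6 were lower in dSRF in each culture, among them the lamin gene LMNA (-1.10 in 3D and -0.77 in 2D) and NES, nestin (-2.37 and -1.61). In 3D 2 were higher and 4 lower in dSAP and 1 and 2 in WT, and in 2D 1 and 3 in dSAP and 2 and 4 in WT.

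The genes that mark the epidermal states in which these keratins are known were mixed as well, as were all genes tested. Of the latter, 35.1% were called higher and 31.3% lower than control in 3D dSRF, and 34.5% and 31.5% in 2D dSRF. In dSAP it was 16.5% and 13.1% in 3D and 17.5% and 15.4% in 2D. In WT it was 18.0% and 17.0% in 3D and 20.1% and 19.2% in 2D. Of 21 tested transcription factors known to act on these keratins in skin or hair, 1 was higher and 5 lower in 3D dSAP, 9 and 5 in 3D dSRF and 1 and 7 in 3D WT, and in 2D 4 and 6, 9 and 7, and 3 and 7. KLF4, a factor of the epidermal barrier, rose by 1.06 in 3D dSRF and 1.04 in 2D dSRF, and GLI2, a hedgehog effector, by 3.05 in 2D dSRF. TFAP2C (-1.45 in 3D dSRF and -1.25 in 2D dSRF) and NR3C1 (-0.90 and -1.01) fell, both with a lower p than these. Of 7 tested activated keratinocyte genes, 4 were higher and 0 lower in 3D dSRF and 2 and 2 in 2D dSRF, 1 and 1 in 3D dSAP, 2 and 1 in 3D WT, 0 and 1 in 2D dSAP and 1 and 1 in 2D WT. The change with the lowest p in dSRF was that of LCN2, lipocalin 2 (3.42 in 3D and 3.10 in 2D). In dSAP and WT LCN2 fell instead, by 2.12 and 1.31 in 3D and by 2.20 and 0.83 in 2D. Of 4 tested terminal differentiation genes, 1 was higher and 2 lower in 3D dSRF and 1 and 3 in 2D dSRF, and 1 was higher and 0 lower in each of the other 4 comparisons. SFN (14-3-3 sigma) rose by 1.76 in 3D dSRF and 1.60 in 2D dSRF, and TGM1, a transglutaminase of the cornified envelope, fell by 1.07 and 1.56.

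Summed markers of myoepithelial cells, the breast cells in which KRT5, KRT14 and KRT17 are usual, stood above control in dSAP and WT, as KRT17 did. In dSRF, where KRT17 was also far above control, the sum overlapped with control in both cultures. Between cultures the sum and KRT17 parted in WT, where the sum was higher in 3D than in 2D while KRT17 was lower. The 9 listed genes summed to 703 to 747 TPM in 3D dSAP, 48.8 to 75.4 TPM in 3D dSRF and 3901 to 4027 TPM in 3D WT, against 50.4 to 66.1 TPM in 3D control. In 2D they summed to 761 to 828 TPM in dSAP, 85.3 to 139 TPM in dSRF and 3141 to 3222 TPM in WT, against 71 to 90.3 TPM in control. ACTA2 and TAGLN, contractile genes that SRF is known to drive, held most of the sum in dSAP and WT. TP63, the defining factor of basal cells, averaged 0.0412 to 0.308 TPM over the groups, and MME 0 to 0.167 TPM. The part of these markers in the KRT17 result was not tested. Immune markers summed to at most 0.317 TPM in a library and adipocyte markers to at most 1.12 TPM. Fibroblast markers summed to 16.2 to 116 TPM in 3D dSRF and to 80.4 to 89.6 TPM in 3D WT, against 21.8 to 22.9 TPM in 3D control, and endothelial markers to 1.37 to 10.7 TPM in 3D dSRF, nearly all of it VWF, against at most 0.334 TPM in 3D control. Their part in the dSRF results was not tested either.

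Neighbouring members did not share 1 pattern. KRT16 and KRT17 lie next to each other, 3542 bp apart on the same strand, and KRT14 lies 22857 bp from KRT16, yet KRT17 was high in WT, KRT16 was not, and KRT14 held 31 counts in all. KRT15 lies 1088 bp from KRT19, which rose over control by 3.33 in 3D dSRF and 2.59 in 2D dSRF, and by 0.59 in 3D WT and 0.66 in 2D WT. On chromosome 12, KRT71 lies 23222 bp and KRT6A 21318 bp from KRT5, and all 3 held counts almost only in dSRF. Of the other annotated genes within 50 kb of a tested member, none passed the filter on low counts.

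The genes whose log2 CPM followed each member most closely over the 24 libraries are given as a description, since libraries of a group share line and culture. For KRT17 these were ULBP2 (Pearson r = 0.985), a ligand of the NKG2D receptor, the transcription factor gene KLF7 (0.978) and ENAH (0.964), an actin regulator. For KRT16 they included the homeobox gene HOXB9 (0.993) and SC5D (0.985), a sterol desaturase gene. For KRT15 they were TSPYL2 (0.989), ICA1 (0.987) and BICDL1 (0.986), and for KRT5 CRCT1 (0.992), IGFL1 (0.987) and BCL9L (0.987). For KRT6A the highest were ATP6V0B (0.95), CERT1 (0.949) and PTK6 (0.945). For KRT34 no gene went above NTMT1 (0.810), GPN1 (0.802) and HSPH1 (0.781).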

How the data were processed

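Total RNA was depleted of ribosomal RNA and made into stranded libraries, per the labels' protocols; the molecule field names polyA RNA instead. Reads were assigned with Salmon (version 11.3 as written) on hg38, per the submitters' processing notes. Their annotation is not given here. The authors deposited expected counts per gene, not whole for 26.3% of values and rounded here, and TPM. Groups follow the titles; the genotype field disagrees for 16 of 24 libraries.

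Counts were fitted in edgeR 4.0.16 (filterByExpr, TMM, robust quasi-likelihood with 8 groups and 16 residual degrees of freedom, all 24 libraries), with Benjamini-Hochberg adjustment over 14986 genes and calls at 0.05. CPM is TMM-normalised. Fold changes are fitted where both groups hold more than 3 counts. Where a group held 0 counts it was set to 3 over the group, and the fold is a bound that takes the other group's counts as exact. Against 1 to 3 counts the fold is a ratio with an exact 95% interval, which covers counting error only.

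Named genes were all 8 members, up to 4 genes per list with the lowest p against control, the 3 genes most correlated with each tested member (at least 1 CPM in a group; 1 of these genes is not reported here) and neighbours within 50 kb. The members and lists were chosen with earlier results of these data known. Replicate numbers pair nothing in the labels, and deviations of same-numbered libraries correlated at -0.131 to 0.108. Other settings tried were DESeq2 1.42.0, RLE scaling, no filter on low counts, limma 3.58.1 on log2(TPM + 1) and log2(TPM + 0.1) (kept at 0.1 TPM in 3 libraries), a replicate block, only the groups compared, each library left out, and near copies summed. Symbols and positions came from GENCODE 29 for 34620 ids. RefSeq's promoter table held 2 of the 8 members, and promoters are not used here.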

Additional observations from a re-analysis of the deposited data

Results flagged for a closer look

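The culture change of KRT17 differed between lines in the added comparison. The log2 change of 3D over 2D in dSRF minus that in WT was 2.37 ± 0.29 (adjusted p = 4.32e-06 in edgeR's quasi-likelihood test), and the change in dSAP minus that in dSRF was -3.10 ± 0.31 (adjusted p = 5.46e-07). KRT17 rose in 3D in dSRF and fell in dSAP and WT, in a direction that all 3 libraries of dSAP and of WT and 2 of 3 of dSRF showed. Leaving out any 1 library gave 2.12 to 2.67 for dSRF minus WT and -3.39 to -2.85 for dSAP minus dSRF, called each time.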

How the results depend on the processing

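Of the recomputed values of single keratins and counts over all genes, 3389 kept their direction and side of the threshold, 89 moved, 75 passed it newly, 20 lost it and 5 reversed. Of the reversed ones, KRT34 in 3D dSRF over control ran from 0.0 to 6.23 and in 3D dSAP over dSRF from -6.23 to 0.0 leaving out a library, KRT17 in 3D dSRF over WT from -0.26 to 0.28, each changing sign or reaching 0 without 3D dSRF 1, and with near copies summed KRT17 in 3D dSRF over WT came to 2.16 and KRT16 in 2D dSRF over WT to -0.39, since that sum holds KRT16 and KRT17 together. The number of the 6 tested keratins called was within 1.5 times in 639 cases and moved in 65. Over control it was 1 in 2D WT but 2 by DESeq2, 2 on log2(TPM + 0.1) and 3 with only the groups compared, which tests fewer members, and 1 to 4 leaving out a library. It was 2 in 2D dSAP but 2 to 4 leaving out a library, and 6 in 2D dSRF but 3 with only the groups compared. It was 1 in 3D dSAP and 1 in 3D WT, but 3 by DESeq2, 2 on each TPM scale and with only the groups compared, and 1 to 3 leaving out a library. In 2D dSAP over WT it was 1, but 2 on each TPM scale, 2 with the replicate block, 3 with only the groups compared and 1 to 3 leaving out a library; in 2D dSRF over WT it was 5, but 3 with only the groups compared. For 3D over 2D it was 1 in WT, but 2 on log2(TPM + 0.1), 3 with only the groups compared and 1 to 3 leaving out a library, and 2 in dSRF, but 1 by DESeq2 and on log2(TPM + 0.1), 0 with only the groups compared and 2 to 5 leaving out a library. For the effect in 3D minus 2D it was 0, but on log2(TPM + 1), with or without a filter, 2 in dSAP, 1 in dSRF and 1 in WT, on log2(TPM + 0.1) 1 in dSAP and dSRF, and 0 to 2 in dSRF leaving out a library. For the added differences it was 0 for dSAP minus WT, but 1 on log2(TPM + 1) and with only the groups compared and 0 to 1 leaving out a library. It was 1 for dSRF minus WT, but 2 by DESeq2 and on each TPM scale and 1 to 3 leaving out a library, and 2 for dSAP minus dSRF, but 1 without a filter, by DESeq2 and with only the groups compared, and 1 to 2 leaving out a library. The cause was not tested.

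The replicate block changed the call of no other keratin than KRT34 in 2D dSAP over WT (3.56 ± 1.04, adjusted p = 0.0477); same-numbered libraries correlated at -0.131 to 0.108, so they share only a number. Counts over all genes moved more. For 3D over 2D in dSRF 2551 genes were called, but 1551, 1423 and 1552 on the TPM scales, 0 with only the groups compared and 1599 to 7351 leaving out a library. For dSAP over WT 1810 were called in 3D and 1919 in 2D, but 4607 and 4288 with only the groups compared, and 1186 to 4149 and 1171 to 4220 leaving out a library. In 3D dSAP over control 4435 were called, but 6715 without 3D dSRF 1. For the effect in 3D minus 2D, 350 were called in dSAP (148 to 600 by tool or scale, 1400 with only the groups compared, 206 to 1738 leaving out a library), 4379 in dSRF (2642 and 3679 to 6680) and 1376 in WT (720 to 786 on TPM, 3463 and 973 to 3636). For the added differences 207 were called for dSAP minus WT (49 to 461 by tool, filter or scale, 2196 with only the groups compared, 82 to 1791 leaving out a library) and 4132 for dSAP minus dSRF (2560 and 3460 to 6456). TPM also moved the share of calls that were higher: on log2(TPM + 1) it was 67.7% for dSAP over WT in 3D and 73.7% in 2D, against 45.1% and 39.8% on counts, 67.4% against 52.5% for 2D dSRF over WT, 38.8% against 51.1% for 2D WT over control, and for 3D over 2D 64.3% against 50.7% in dSAP, 63.6% against 48.7% in WT and 62.9% against 48.6% in control. For the added differences it was 46.0% against 59.4% for dSAP minus WT and 39.1% against 49.8% for dSRF minus WT. Depth limits KRT5, KRT6A, KRT14 and KRT34, which held at most 80 counts in a library.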
